A study of Homo sapiens with 18 samples.

Results

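Expression of CDK9, of its cyclin partners and of the complexes that carry RNA polymerase II from its promoter-proximal pause into productive elongation was examined in 5 lines depleted of a nucleotide excision repair (NER) gene and in 1 control line. The 34 genes were chosen by name for their roles, but with earlier results of these data known. They cover P-TEFb and related kinases and cyclins, the 7SK inhibitory complex, DSIF and SPT6, FACT, NELF, the super elongation complex, the PAF complex, TFIIS, and MYC and MCL1 as short-lived transcripts. They are 34 of the 22031 genes with values, and all 34 were among the 16382 genes expressed highly enough to be tested. The study went on to treat the same lines with a CDK9 inhibitor, which is why the expression of this kinase and its partners is of interest.

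All 6 lines derive from MCF-10A, an established line of human breast epithelium that is not malignant. The deficient-NER (dNER) lines were shXPA, shXPC, shERCC4, shERCC5 and shERCC6, each made with lentiviral particles of a single shRNA clone against the gene in its name, and the reference was shCTRL (called shCON in the labels), made with a non-target shRNA. All lines, shCTRL included, were stably transduced, and no drug or ultraviolet treatment is named for the RNA samples. RNA from 3 biological replicates of each line was sequenced after rRNA depletion, giving 18 libraries. Each dNER line rests on 1 shRNA and all 5 comparisons share the same 3 shCTRL libraries, so the p and q values below measure the spread between replicates of a line and not between independently made lines.

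RNA polymerase II pauses shortly after it starts a transcript, held there by DSIF and NELF. P-TEFb, the kinase CDK9 bound to cyclin T1 or T2, releases it by phosphorylating DSIF, NELF and the polymerase tail, and most P-TEFb is kept inactive on the 7SK RNA by HEXIM1 or HEXIM2 until it is handed to the super elongation complex. SPT6, the PAF complex, FACT and TFIIS then accompany the moving polymerase, and transcripts with short lives, such as those of MYC and MCL1, are known to fall quickly when CDK9 is inhibited.

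Values are TPM, a share of each library corrected for transcript length. The read depth behind them is unknown, and counting intervals are therefore not given. Library totals ranged from 999214 to 999484 TPM. One clone-named entry, CTD-2328D6.1, took 26.5% of the TPM in shERCC4 replicate 1 and 3.44% to 7.58% in the other libraries, so less of the total was left for other genes in that replicate. Without it, members lower in shERCC4 numbered 7 in place of 9, and other results against shCTRL that rest on it are given both ways. The targeted transcripts stood at 67.6% of shCTRL for XPA, 44.1% for XPC, 40.8% for ERCC4, 51.6% for ERCC5 and 44% for ERCC6, each in its own line and each lower by limma at a q under 0.05. XPA fell least, by -0.54 on the log2 scale, under a fold of 1.5. After the median-of-ratios scaling described below its limma q was 0.0483, and those of the other targets were 0.00233 or less. Basal keratinocyte-type markers were abundant, with KRT5 at 2920 TPM over the dNER lines and 1840 TPM in shCTRL and KRT14 at 2510 and 719 TPM. Of the 8 epithelial markers tested, 4 rose in the mean of the 5 lines (KRT5, KRT14, TP63 and EPCAM) and KRT17 fell (1080 TPM in the dNER lines and 1750 TPM in shCTRL; -0.95, a call lost after scaling), with KRT17 at 368 TPM in shXPA and 492 TPM in shERCC4. CDH1, ITGB4 and ITGA6 were not called. By the rule given below, 7.84% of all genes rose and 28.6% fell. After scaling 5 of the 8 markers rose and 0 fell (all genes, 13.6% and 12.2%). Of 10 stromal and blood cell markers only 5 were expressed highly enough to be tested, although DCN, a stromal gene, reached 102 TPM in the dNER lines and 211 TPM in shCTRL. In bulk RNA, fewer cells of a type and less RNA per cell cannot be told apart.

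Most elongation genes were lower in the dNER lines as a share of RNA, with 28 of the 34 lower in the mean of the 5 lines at a limma q under 0.05 without a fold threshold, against 54.2% of all genes by the same rule. A gene was called when the Storey q of the limma test was under 0.05 and the fitted fold exceeded 1.5. In shXPA 12 members fell and 2 rose, against 30.9% and 11.9% of all genes tested. In shXPC 20 fell and 1 rose (all genes, 38% and 9.89%). In shERCC4 9 fell and 1 rose (all genes, 30.9% and 4.38%). In shERCC5 14 fell and 2 rose (all genes, 28.3% and 9.97%), and in shERCC6 5 fell and 2 rose (all genes, 19.7% and 6.52%). As a share of the 34, the members that fell came to 35.3% in shXPA, 58.8% in shXPC, 26.5% in shERCC4, 41.2% in shERCC5 and 14.7% in shERCC6. On these values the share was near the background in shXPA, shERCC4 and shERCC6 and above it in shXPC and shERCC5.

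For the mean of the 5 dNER lines, 10 members fell and 1 rose (all genes, 28.6% and 7.84%). The median member changed by -0.44 on the log2(TPM + 0.5) scale, against a median of -0.33 over all genes tested, and 22 of the 34 lay below that median. The 100 genes with the highest mean TPM took 40.4% to 58.8% of the total in dNER libraries and 34.9% to 37.1% in shCTRL libraries, and the part of this difference in the downward shift was not tested. After median-of-ratios scaling, which sets the typical gene of each library to the same level, the median over all genes was 0 and that of the members was -0.09. The scaled values called 3 members (8.82%) lower in each of shXPA, shXPC, shERCC4 and shERCC5 and 2 (5.88%) in shERCC6 (all genes, 17.3%, 16.2%, 10.5%, 13.1% and 9.77%). Scaled, the share of members lower thus exceeded that of all genes in no line. In the mean of the 5 lines they called 0 members lower (all genes, 12.2%), although 15 passed an unadjusted p under 0.05 with a negative sign in limma (all genes, 27.8%), and 1 was called lower after quantile normalization (all genes, 12.8%). Called higher in the scaled mean were 3 members, ELL3, HEXIM2 and MYC (all genes, 13.6%). Changes below are therefore given on both scales.

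**Figure D1:**
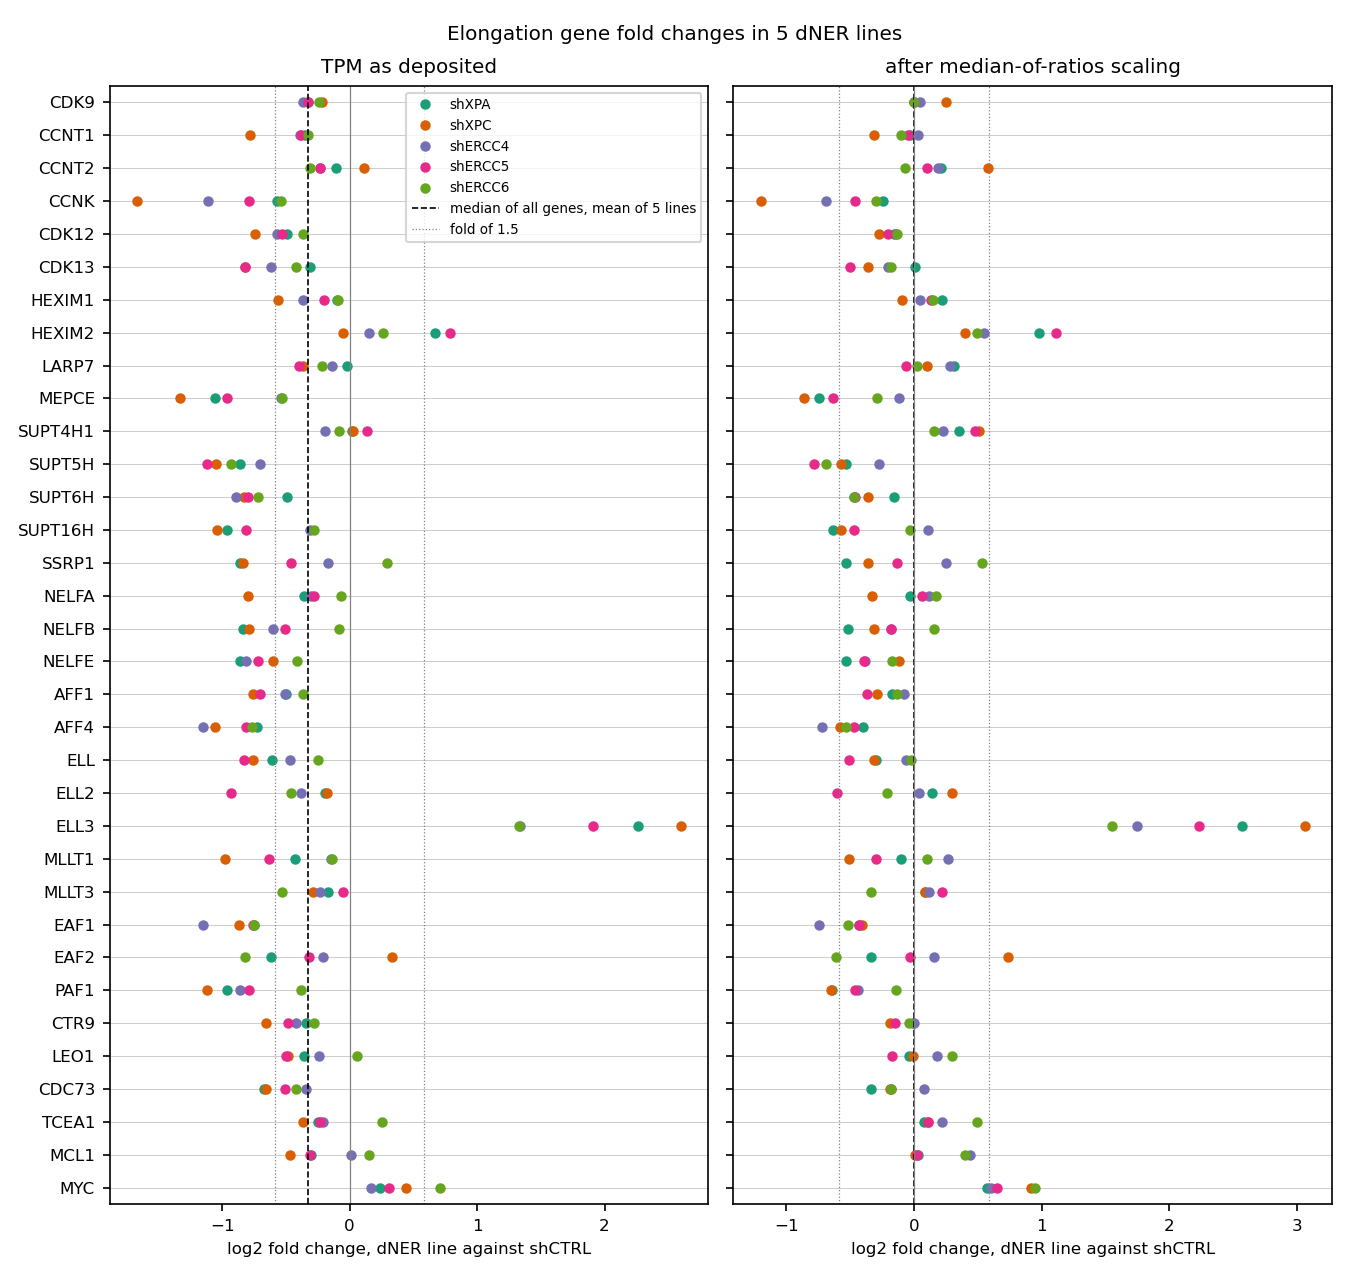
Log2 fold change of each of the 34 members in each dNER line against shCTRL, with TPM as deposited on the left and after median-of-ratios scaling on the right. Points are fitted line values, the dashed line is the median of all genes tested for the mean of the 5 lines (-0.33 as deposited and 0 scaled), and the dotted lines mark a fold of 1.5. ELL3 stands to the right of every other member on both scales, while most others sit left of 0 as deposited and around 0 once scaled.

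SUPT5H, AFF4 and EAF1 were called lower in all 5 dNER lines (3 of 34, or 8.82%, against 9.53% of all genes), and ELL3 was called higher in all 5 (1 of 34, against 2.01%). On the scaled values ELL3 was again called higher in all 5 lines (all genes, 4.33%), whereas 0 members were called lower in all 5 (all genes, 3.49%), with 5 members (CCNK, SUPT5H, SUPT6H, AFF4 and EAF1) lower at a limma q under 0.05 in every line without the fold threshold (all genes, 9.16%) and 4 at an unadjusted p under 0.05 in every line (all genes, 8.74%). In 14 members all 15 dNER libraries lay below all 3 shCTRL libraries (all genes, 24.5%), and in ELL3 all 15 lay above (all genes, 2.81%). Line by line, the share of all genes with 3 libraries below the 3 shCTRL libraries was 45.4% for shXPA, 50.8% for shXPC, 46.2% for shERCC4, 46.6% for shERCC5 and 40.5% for shERCC6, and the share above was 16.2%, 12.8%, 5.19%, 15.1% and 13.9% in the same order, so a lack of overlap in 1 line is common here. Called in no line were 9 members as deposited (all genes, 30.9%), among them CDK9, CCNT2, HEXIM1 and MCL1, and 22 members on the scaled values (all genes, 44%).

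The start regions of CDK9 and of the 4 members called the same way in every dNER line are shown because their transcripts mark the contrast in this gene set: a kinase gene whose change lay near the median of all genes, a transcript that rose everywhere and transcripts that fell everywhere. Each run is the RefSeq window (GRCh38.p14) from 250 bases before to 50 after an annotated start, read 5′ to 3′ on the gene's strand. They lie at chr9:127785784-127786083 on the + strand for CDK9, chr15:43776917-43777216 on the - strand for ELL3, chr19:39445332-39445631 on the + strand for SUPT5H, chr5:132963585-132963884 on the - strand for AFF4 and chr3:15427348-15427647 on the + strand for EAF1. Capitals mark matches on either strand to the E-box CACGTG, the ETS motif CCGGAAG, the GC box GGGCGG, the CCAAT box CCAAT and the TATA motif TATAAA.
CDK9: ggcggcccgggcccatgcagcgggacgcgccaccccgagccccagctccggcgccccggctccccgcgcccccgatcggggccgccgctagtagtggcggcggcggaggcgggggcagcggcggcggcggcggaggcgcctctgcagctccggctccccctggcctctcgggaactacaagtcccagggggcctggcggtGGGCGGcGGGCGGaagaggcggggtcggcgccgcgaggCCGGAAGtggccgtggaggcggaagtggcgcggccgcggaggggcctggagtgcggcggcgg
ELL3: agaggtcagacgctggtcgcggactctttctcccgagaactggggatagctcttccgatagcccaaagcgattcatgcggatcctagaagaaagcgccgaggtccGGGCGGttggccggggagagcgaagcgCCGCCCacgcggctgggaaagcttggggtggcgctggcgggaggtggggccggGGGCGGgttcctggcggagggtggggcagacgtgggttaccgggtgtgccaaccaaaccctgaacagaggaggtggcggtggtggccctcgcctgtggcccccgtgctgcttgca
SUPT5H: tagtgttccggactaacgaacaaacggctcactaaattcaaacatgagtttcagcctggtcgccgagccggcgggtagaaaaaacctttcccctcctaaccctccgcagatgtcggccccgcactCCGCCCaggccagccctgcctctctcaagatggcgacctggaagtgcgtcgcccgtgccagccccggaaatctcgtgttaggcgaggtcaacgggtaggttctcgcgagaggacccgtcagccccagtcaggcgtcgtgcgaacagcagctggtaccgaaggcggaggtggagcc
AFF4: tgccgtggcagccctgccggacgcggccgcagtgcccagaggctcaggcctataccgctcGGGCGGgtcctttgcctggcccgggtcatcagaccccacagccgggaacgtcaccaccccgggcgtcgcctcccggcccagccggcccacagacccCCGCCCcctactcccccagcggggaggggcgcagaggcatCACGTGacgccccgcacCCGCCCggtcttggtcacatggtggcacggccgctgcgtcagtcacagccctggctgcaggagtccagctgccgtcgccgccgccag
EAF1: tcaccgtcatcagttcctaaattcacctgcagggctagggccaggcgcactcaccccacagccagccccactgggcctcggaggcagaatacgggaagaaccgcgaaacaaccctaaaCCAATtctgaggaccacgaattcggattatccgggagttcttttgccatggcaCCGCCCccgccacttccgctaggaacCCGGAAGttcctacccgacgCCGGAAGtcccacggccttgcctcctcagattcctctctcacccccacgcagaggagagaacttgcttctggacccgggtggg

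All 5 windows were rich in G and C, at 82.0% for CDK9, 67.7% for ELL3, 61.7% for SUPT5H, 74.7% for AFF4 and 60.3% for EAF1. Every window held a GC box, with 2 in CDK9, 3 in ELL3, 1 in SUPT5H, 3 in AFF4 and 1 in EAF1. The ETS motif occurred once in CDK9 and 2 times in EAF1, the E-box only in AFF4 and the CCAAT box only in EAF1, and the TATA motif in none of the 5. Windows were found for 29 of the 34 members (37 windows, some overlapping). GC boxes were present in 75.7% of them against 45% of all 35116 windows, ETS motifs in 27.0% against 10.3%, CCAAT boxes in 40.5% against 34.6%, E-boxes in 13.5% against 7.26% and TATA motifs in 2.7% against 11.5%. These are matches of letters, not measured binding, and the member that rose has the same kind of match as members that fell. The 35116 windows were not limited to the genes tested here, and members with several windows count more than once. The shares therefore cannot show a trait of this gene set beyond that of expressed genes.

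CDK9, the kinase itself (chr9:127785679-127790787, GRCh38), was modestly lower as a share of RNA and average for the transcriptome. It stood at 40.3, 41.6 and 48.7 TPM in shXPA, 47.5, 39.9 and 54.0 TPM in shXPC, 41.3, 45.8 and 39.7 TPM in shERCC4, 41.3, 47.6 and 41.4 TPM in shERCC5 and 43.6, 42.6 and 52.9 TPM in shERCC6, against 55.7, 50.4 and 58.3 TPM in shCTRL. Replicates of shXPC and shERCC6 reached into the shCTRL range, and 13 of the 15 dNER libraries lay below all 3 shCTRL libraries. No line passed the fold threshold. Over the 5 lines the log2 change was -0.30 ± 0.0946 (SE; 95% interval -0.51 to -0.09; limma, q = 0.00345), or 81.3% of shCTRL, and after scaling the sign turned to 0.06 (limma, q = 0.231). Its change ranked at percentile 51.8 among all genes tested. Among the 5 dNER lines CDK9 spanned 0.15 on the log2 scale (moderated F test in limma, unadjusted p = 0.708, q = 0.154).

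The T-type cyclins, which CDK9 needs for activity, differed between themselves. CCNT1 measured 16.4, 17.0 and 15.4 TPM in shXPA, 11.2, 14.2 and 10.8 TPM in shXPC, 14.5, 15.4 and 17.9 TPM in shERCC4, 14.4, 15.1 and 18.6 TPM in shERCC5 and 16.7, 19.0 and 14.1 TPM in shERCC6, against 23.5, 22.1 and 17.5 TPM in shCTRL. It was called lower in shXPC alone, at -0.78 ± 0.148 (SE; limma, q = 7.58e-05), a call lost on the scaled values (-0.31). shCTRL replicate 3 overlapped 3 of the other dNER lines. CCNT2 measured 22.6, 23.8 and 21.4 TPM in shXPA, 25, 28.6 and 25.5 TPM in shXPC, 15.8, 21.8 and 25.8 TPM in shERCC4, 22, 20.9 and 19.5 TPM in shERCC5 and 21.1, 19.3 and 18.4 TPM in shERCC6, against 27.5, 22.7 and 23.3 TPM in shCTRL. It was called in no line, with a log2 change in the mean of 5 of -0.15 as deposited and 0.20 scaled.

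**Figure D2:**
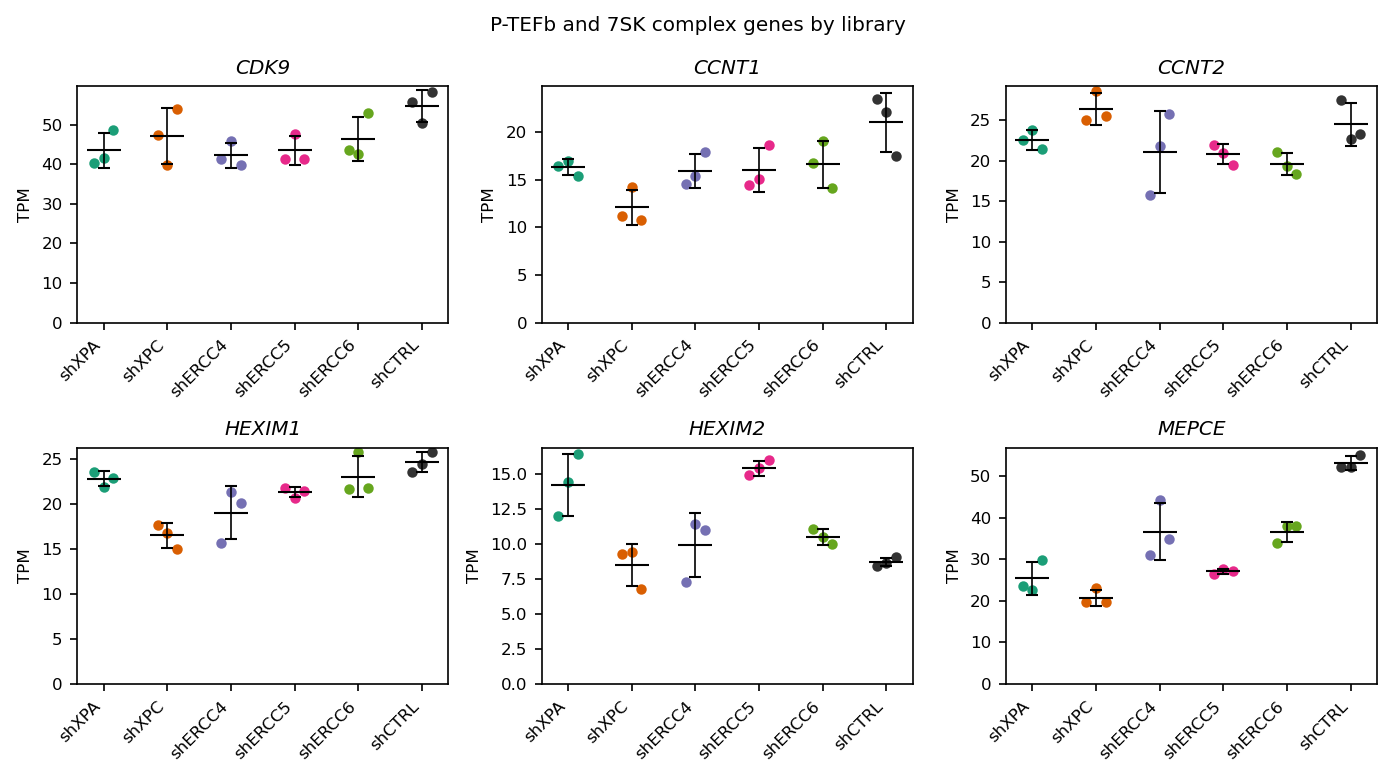
TPM of CDK9, CCNT1, CCNT2, HEXIM1, HEXIM2 and MEPCE in each library. Points are the 3 replicates of a line, horizontal marks the line means and bars ±1 SD, with the 5 dNER lines left of shCTRL. CDK9 is nearly level over the dNER lines, MEPCE lies below shCTRL in all 15 dNER libraries, and HEXIM2 is highest in shXPA and shERCC5.

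The 7SK inhibitory complex did not move as a unit. HEXIM1, which holds P-TEFb inactive on the 7SK RNA, measured 23.5, 21.9 and 22.9 TPM in shXPA, 17.7, 16.8 and 15 TPM in shXPC, 15.7, 21.3 and 20.1 TPM in shERCC4, 21.8, 20.6 and 21.4 TPM in shERCC5 and 21.6, 25.7 and 21.8 TPM in shERCC6, against 23.5, 24.4 and 25.7 TPM in shCTRL. Its log2 change was largest in shXPC at -0.56, under the fold threshold, and its mean over the 5 lines was -0.27 as deposited and 0.09 scaled. Its paralog HEXIM2 averaged 14.2 ± 2.21 TPM in shXPA, 8.5 ± 1.47 TPM in shXPC, 9.92 ± 2.28 TPM in shERCC4, 15.4 ± 0.538 TPM in shERCC5 and 10.5 ± 0.554 TPM in shERCC6, against 8.72 ± 0.311 TPM in shCTRL (SD, n = 3 each). HEXIM2 rose in shXPA (0.67 ± 0.162 on the log2 scale, SE; limma, q = 0.000717) and in shERCC5 (0.79 ± 0.162; q = 0.000235), and both calls held on the scaled values (0.98 and 1.11). The call in shXPA rests on shXPA replicate 3, without which the change was 0.56. Antisense genes not listed in the table overlap exons of HEXIM1 by 520 bases and of HEXIM2 by 1026.

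MEPCE, the enzyme that caps 7SK RNA and stays bound to it, averaged 25.4 ± 3.95 TPM in shXPA, 20.8 ± 1.91 TPM in shXPC, 36.7 ± 6.80 TPM in shERCC4, 27.1 ± 0.670 TPM in shERCC5 and 36.6 ± 2.40 TPM in shERCC6, against 53.2 ± 1.63 TPM in shCTRL (SD, n = 3 each). Every dNER library was below shCTRL. It fell in shXPA (-1.06), shXPC (-1.33) and shERCC5 (-0.96), with limma q between 4.92e-08 and 3.53e-06, and these 3 calls held on the scaled values (-0.74, -0.86 and -0.63). LARP7, the other protein that stays on 7SK, was called in no line and averaged 36.3 to 47.6 TPM over the dNER lines and 48.1 TPM in shCTRL.

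Cyclin K and its kinases CDK12 and CDK13 phosphorylate the polymerase tail later in the gene, and CCNK fell in 3 lines. CCNK stood at 29.4, 24.2 and 27.4 TPM in shXPA, 12, 13.4 and 11.5 TPM in shXPC, 16.4, 19.5 and 19.3 TPM in shERCC4, 24.2, 24.1 and 21 TPM in shERCC5 and 27.6, 26.8 and 28.2 TPM in shERCC6, against 42.0, 40.9 and 37.9 TPM in shCTRL. The groups did not overlap in any line. The fall was -1.67 ± 0.105 in shXPC (SE; limma, q = 5.99e-10), -1.11 in shERCC4 and -0.79 in shERCC5, and the calls in shXPC and shERCC4 held after scaling (-1.20 and -0.69). CCNK shares 4893 exon bases with CCDC85C on the opposite strand, whose reads cannot be told apart from its own unless strand was used, which is not given in the sources used here. CCDC85C averaged 13.7 TPM in shXPA, 9.78 TPM in shXPC, 11.8 TPM in shERCC4, 9.38 TPM in shERCC5 and 16.7 TPM in shERCC6, against 17.2 TPM in shCTRL, and its part in the CCNK values was not tested.

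CDK13, a cyclin K kinase, measured 17.3, 19.6 and 16 TPM in shXPA, 10.9, 14.9 and 11 TPM in shXPC, 11.8, 15.6 and 15.2 TPM in shERCC4, 11.7, 12 and 12.8 TPM in shERCC5 and 16.3, 15.4 and 17.1 TPM in shERCC6, against 22.9, 21.7 and 21.1 TPM in shCTRL. No dNER library reached the shCTRL range. It fell in shXPC, shERCC4 and shERCC5 (-0.82, -0.62 and -0.82; limma, largest q = 0.000373). None of these calls held after scaling (-0.36, -0.20 and -0.50), and the call in shERCC4 was lost without shERCC4 replicate 1 (-0.49) or shCTRL replicate 1 (-0.58). For the mean of the 5 lines it fell by 0.60, a call lost without shCTRL replicate 1 (-0.57), shERCC4 replicate 1 (-0.57) or shXPC replicate 1 (-0.58). CDK12, the other cyclin K kinase, was called in shXPC only (-0.74), and likewise not after scaling (-0.27).

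DSIF, the heterodimer that both pauses and later accompanies the polymerase, was split between its subunits. SUPT5H, the large subunit that CDK9 phosphorylates, stood at 57.3, 57.2 and 66.2 TPM in shXPA, 60.8, 53.5 and 45.1 TPM in shXPC, 58.1, 72.8 and 72.3 TPM in shERCC4, 48.2, 50.8 and 52.1 TPM in shERCC5 and 57.2, 59.1 and 55.3 TPM in shERCC6, against 97.7, 115 and 117 TPM in shCTRL. The highest dNER library was thus well below the lowest shCTRL library. Its log2 change was -0.70 in shERCC4, -0.86 in shXPA, -0.93 in shERCC6, -1.05 in shXPC and -1.12 in shERCC5, all called (limma, largest q = 4.71e-05), and on the scaled values it remained called in shERCC5 (-0.78) and shERCC6 (-0.69). SUPT4H1, the small subunit, averaged 69.8 to 87.9 TPM over the dNER lines and 79.8 ± 8.29 TPM in shCTRL (SD, n = 3) and was called in no line (mean of 5, -0.02 with a 95% interval of -0.19 to 0.16, and 0.34 scaled). SUPT4H1 shares 1325 exon bases on the same strand with AC004687.2, a gene not listed in the table.

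SUPT6H, the histone chaperone SPT6 that binds the elongating polymerase, averaged 40.2 ± 4.22 TPM in shXPA, 31.7 ± 4.14 TPM in shXPC, 30.4 ± 3.30 TPM in shERCC4, 32.4 ± 1.59 TPM in shERCC5 and 34.4 ± 3.36 TPM in shERCC6, against 56.6 ± 1.07 TPM in shCTRL (SD, n = 3 each). It fell in shXPC, shERCC4, shERCC5 and shERCC6 (-0.72 to -0.89), with -0.49 in shXPA, and no line was called on the scaled values (-0.16 to -0.47). The NELF subunits, which hold the pause, were called in different numbers of lines. NELFE, an RNA-binding subunit, fell in 4 lines (-0.60 to -0.86) and NELFB, a core subunit, in shXPA, shXPC and shERCC4 (-0.84, -0.79 and -0.60), the last of which was lost without shERCC4 replicate 1 (-0.47) or shCTRL replicate 3 (-0.54). The NELFE call in shXPC was lost without shXPC replicate 1 (-0.52) or shCTRL replicate 3 (-0.55). NELFA, the subunit that contacts the polymerase, fell in shXPC (-0.80). After scaling no NELF subunit was called in any line, and the direction of NELFA turned positive in shERCC4, shERCC5 and shERCC6 (0.12, 0.06 and 0.17) and that of NELFB in shERCC6 (0.16).

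The super elongation complex, which brings P-TEFb to paused genes on AFF1 or AFF4 scaffolds with an ELL protein, contained the member that rose most and 2 of the members that fell in every line. ELL3, the third ELL paralog, known in mouse embryonic stem cells for priming at enhancers, stood at 43.7, 35.6 and 38.5 TPM in shXPA, 48.4, 55.1 and 46.2 TPM in shXPC, 12.9, 16.7 and 40.2 TPM in shERCC4, 28.7, 31.5 and 32.1 TPM in shERCC5 and 22.1, 19.7 and 19.3 TPM in shERCC6, against 8.91, 6.33 and 8.40 TPM in shCTRL. No dNER library fell into the shCTRL range, and shERCC4 replicate 3 was far above the other shERCC4 replicates. The ratio of means to shCTRL was 4.98 in shXPA, 6.33 in shXPC, 2.95 in shERCC4, 3.91 in shERCC5 and 2.59 in shERCC6. Log2 changes ran from 1.33 ± 0.268 in shERCC6 to 2.6 ± 0.268 in shXPC (SE; limma, largest q = 0.000442) and from 1.55 to 3.06 on the scaled values. In shERCC4 the change of 1.34 became 1.67 without replicate 1 and 0.87 without replicate 3, and stayed called in both cases. Over the 5 lines the change was 1.89 (95% interval 1.44 to 2.34), at percentile 99.3 of all genes.

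ELL3 (chr15:43772600-43777543, - strand) overlaps exons of other genes. It shares 627 bases with PDIA3 and 416 with SERF2, both on the opposite strand, and 1558 with AC018512.1 on its own strand. PDIA3 averaged 118 to 206 TPM over the dNER lines and 311 TPM in shCTRL, so it was lower where ELL3 was higher. SERF2 averaged 508 TPM in shXPA, 534 TPM in shXPC, 497 TPM in shERCC4, 459 TPM in shERCC5 and 427 TPM in shERCC6, against 448 TPM in shCTRL. The SD within these dNER lines was 52.2 to 101 TPM. Among the dNER lines SERF2 was thus highest in shXPC and lowest in shERCC6, as ELL3 was. AC018512.1 was listed at 0 in every line but shERCC5, where it averaged 0.601 TPM. Whether reads of these genes entered the ELL3 values was not tested.

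**Figure D3:**
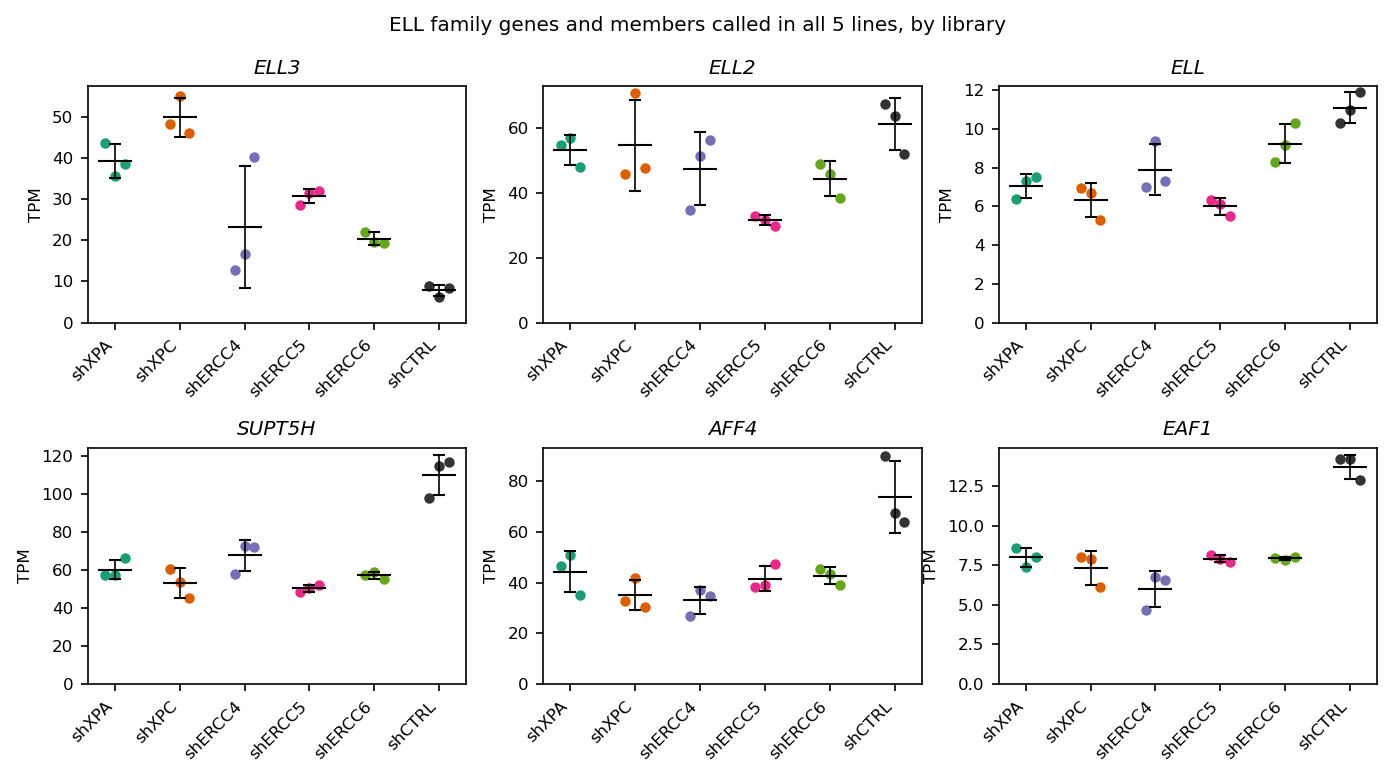
TPM of ELL3, ELL2, ELL, SUPT5H, AFF4 and EAF1 in each library. Points are the 3 replicates of a line, horizontal marks the line means and bars ±1 SD, with the 5 dNER lines left of shCTRL. All 15 dNER libraries are above shCTRL for ELL3, from 12.9 to 55.1 TPM, and below it for ELL, SUPT5H, AFF4 and EAF1.

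The other ELL proteins, which speed the polymerase along the gene, did not rise. ELL2 averaged 53.2 ± 4.64 TPM in shXPA, 54.7 ± 14.0 TPM in shXPC, 47.5 ± 11.2 TPM in shERCC4, 31.6 ± 1.55 TPM in shERCC5 and 44.4 ± 5.32 TPM in shERCC6, against 61.1 ± 8.03 TPM in shCTRL (SD, n = 3 each), and was called lower in shERCC5 only, on both scales (-0.93 and -0.60 scaled). ELL, at 6.0 to 9.25 TPM over the dNER lines and 11.1 TPM in shCTRL, fell in shXPA, shXPC and shERCC5 (-0.61, -0.76 and -0.83), with no call left after scaling. The call in shXPA was lost without shXPA replicate 1 (-0.54) or shCTRL replicate 3 (-0.56).

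AFF4, the scaffold on which P-TEFb and ELL proteins assemble, stood at 46.7, 50.9 and 35.3 TPM in shXPA, 32.8, 41.9 and 30.6 TPM in shXPC, 27.0, 37.2 and 34.8 TPM in shERCC4, 38.3, 39.2 and 47.4 TPM in shERCC5 and 45.6, 43.4 and 39.0 TPM in shERCC6, against 90.2, 67.6 and 63.9 TPM in shCTRL. The dNER libraries were all lower, and the shCTRL replicates were spread widely. It fell by 0.73 in shXPA and by up to 1.15 in shERCC4 on the log2 scale (limma, largest q = 0.000795). The call in shXPA was lost without shCTRL replicate 1 or shXPA replicate 3 (-0.58 in both cases), and on the scaled values only shERCC4 was called (-0.72). AFF1, the alternative scaffold, fell in shXPC (-0.76) and shERCC5 (-0.70), and in neither after scaling.

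EAF1, an ELL-associated protein, measured 8.59, 7.37 and 8.0 TPM in shXPA, 8.01, 7.87 and 6.1 TPM in shXPC, 4.66, 6.76 and 6.59 TPM in shERCC4, 8.16, 7.87 and 7.71 TPM in shERCC5 and 7.98, 7.80 and 8.01 TPM in shERCC6, against 14.2, 14.2 and 12.9 TPM in shCTRL. The separation was complete in every line. Log2 changes were -0.75 to -1.15 (limma, largest q = 0.00021), and only shERCC4 remained called after scaling (-0.74). Exons of EAF1 overlap EAF1-AS1 by 1500 bases, COLQ by 462 and METTL6 by 482, all on the opposite strand. EAF1-AS1 is not listed in the table, and COLQ averaged 1.02 to 1.97 TPM over the dNER lines and 5.08 TPM in shCTRL. EAF2, its paralog, averaged 1.5 to 4.07 TPM over the dNER lines and 3.03 TPM in shCTRL. It fell in shXPA (-0.62, lost without shXPA replicate 3 at -0.47 or shCTRL replicate 1 at -0.57) and shERCC6 (-0.82), of which shERCC6 held after scaling (-0.61), while in shXPC the scaled value was called higher (0.74). The reader protein MLLT1 fell in shXPC (-0.98) and shERCC5 (-0.63, lost without shCTRL replicate 3 at -0.56), neither after scaling, and its paralog MLLT3, at 1.43 to 2.21 TPM over the dNER lines and 2.29 TPM in shCTRL, was called in no line.

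Among the factors that travel with the polymerase, the PAF complex and FACT differed between lines. PAF1, after which the complex is named, averaged 24.8 ± 3.18 TPM in shXPA, 22.3 ± 3.91 TPM in shXPC, 26.8 ± 3.90 TPM in shERCC4, 27.9 ± 1.71 TPM in shERCC5 and 37.2 ± 1.97 TPM in shERCC6, against 48.7 ± 2.91 TPM in shCTRL (SD, n = 3 each). It fell in 4 lines (-0.79 to -1.12), with -0.38 in shERCC6, and kept the calls in shXPA and shXPC after scaling (-0.64 and -0.65). CDC73, the parafibromin subunit, fell in shXPA (-0.67) and shXPC (-0.66) and CTR9, a scaffold subunit, in shXPC (-0.66), none of them after scaling. LEO1, another subunit, was called in no line.

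FACT, the histone chaperone formed by SUPT16H and SSRP1, fell in shXPA and shXPC as deposited, and neither subunit was called in shERCC4 or shERCC6. SUPT16H stood at 50.6, 46.6 and 48.2 TPM in shXPA, 42.5, 51.6 and 43.3 TPM in shXPC, 64.8, 84.1 and 80.2 TPM in shERCC4, 53.0, 52.8 and 55.2 TPM in shERCC5 and 80.9, 76.1 and 76.6 TPM in shERCC6, against 93.7, 97.4 and 92.2 TPM in shCTRL. All 15 dNER libraries were lower, those of shERCC4 and shERCC6 least so. It fell in shXPA (-0.96), shXPC (-1.04) and shERCC5 (-0.81), and only the call in shXPA held after scaling (-0.63).

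SSRP1 averaged 56.4 ± 1.57 TPM in shXPA, 57.7 ± 7.17 TPM in shXPC, 92.1 ± 14.9 TPM in shERCC4, 74.6 ± 2.27 TPM in shERCC5 and 126 ± 1.01 TPM in shERCC6, against 103 ± 1.21 TPM in shCTRL (SD, n = 3 each). It fell in shXPA (-0.86) and shXPC (-0.84), neither after scaling, and in shERCC6 all 3 replicates were above shCTRL at 0.29, under the fold threshold (0.53 scaled). MKI67, a proliferation marker picked after its values were seen, averaged 1.97 TPM in shXPA, 5.92 TPM in shXPC, 27 TPM in shERCC4, 10.2 TPM in shERCC5 and 29.6 TPM in shERCC6, against 57.6 TPM in shCTRL. Among the dNER lines it had the same lines low (shXPA, shXPC and shERCC5) as both FACT genes, a likeness that is not a test because of this choice. Against shCTRL the likeness did not hold throughout, as in shERCC6 MKI67 was lower and SSRP1 higher. The part of MKI67 in the FACT values was not tested. TCEA1, the TFIIS protein that rescues backtracked polymerase, was called in no line and averaged 67.1 TPM in shERCC6 and 43.7 to 49.4 TPM in the other dNER lines, against 56.4 TPM in shCTRL.

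**Figure D4:**
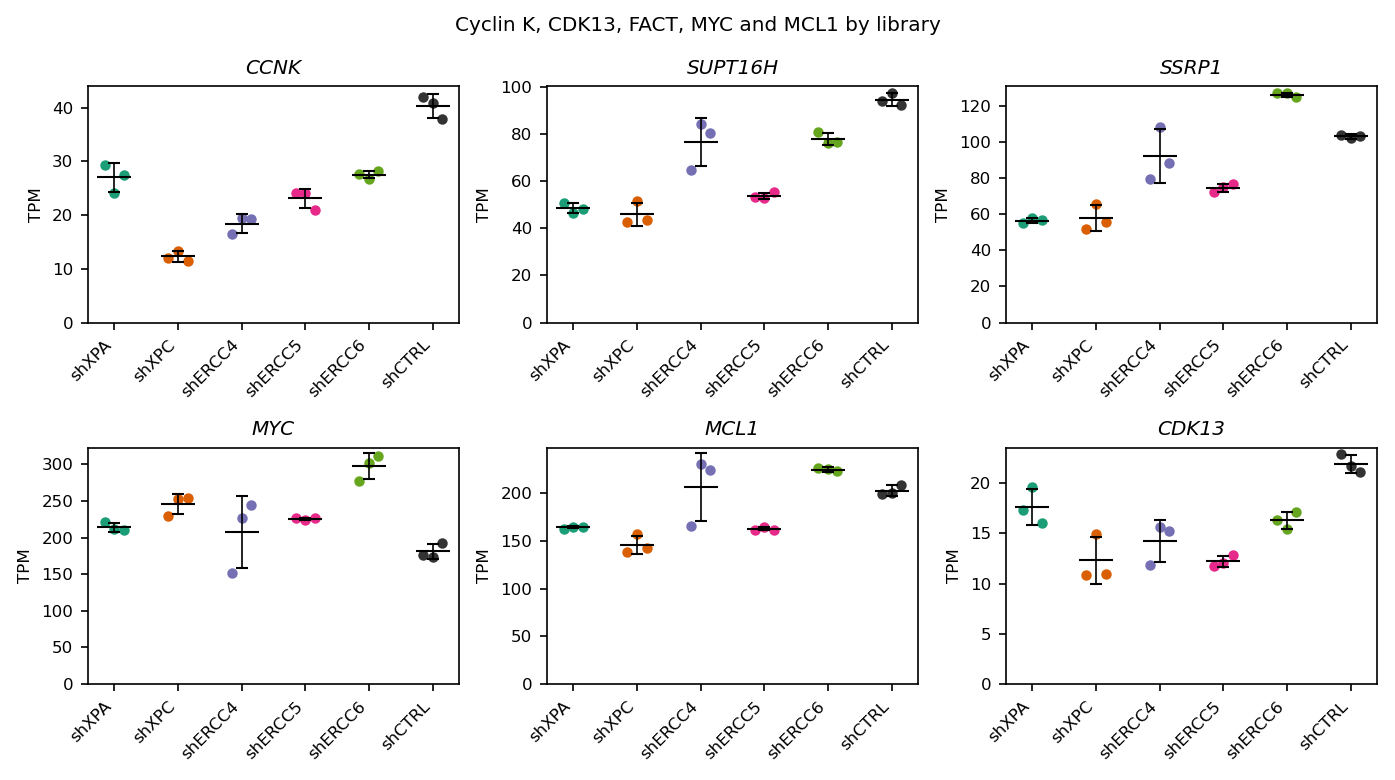
TPM of CCNK, SUPT16H, SSRP1, MYC, MCL1 and CDK13 in each library. Points are the 3 replicates of a line, horizontal marks the line means and bars ±1 SD, with the 5 dNER lines left of shCTRL. CCNK is lowest in shXPC (12.3 TPM on average, against 40.3 TPM in shCTRL), and shERCC6 is the only line with all 3 SSRP1 values above shCTRL.

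MYC and MCL1, short-lived transcripts that depend on CDK9 activity, were not called lower in any dNER line. MYC, a transcription factor that promotes pause release, stood at 221, 211 and 210 TPM in shXPA, 230, 253 and 254 TPM in shXPC, 152, 226 and 245 TPM in shERCC4, 226, 224 and 226 TPM in shERCC5 and 277, 302 and 311 TPM in shERCC6, against 176, 174 and 193 TPM in shCTRL. Of the 15 dNER libraries 14 were above shCTRL, the exception being shERCC4 replicate 1, the library with the large CTD-2328D6.1 share. MYC rose in shERCC6 (0.71 ± 0.128 on the log2 scale, SE; limma, q = 0.000177). On the scaled values it was also called higher in shXPC (0.92), shERCC4 (0.60) and shERCC5 (0.65), and the mean of the 5 lines was 0.38 as deposited and 0.74 scaled.

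MCL1, an anti-apoptotic BCL2 relative, measured 163, 165 and 165 TPM in shXPA, 139, 157 and 143 TPM in shXPC, 166, 231 and 224 TPM in shERCC4, 162, 165 and 162 TPM in shERCC5 and 227, 226 and 223 TPM in shERCC6, against 199, 200 and 209 TPM in shCTRL. As deposited, the lines thus fell on both sides of shCTRL, with shXPA, shXPC and shERCC5 below, shERCC6 above and shERCC4 overlapping. On the scaled values the log2 changes of the lines ran from 0.01 to 0.44, so no line mean was below shCTRL. No line passed the fold threshold on either scale, and the mean of the 5 lines was -0.18 (95% interval -0.35 to -0.01) as deposited and turned to 0.18 scaled.

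Ratios of 2 members within a library are little affected by a scaling factor for the library, apart from the added 0.5 TPM in low genes (median-of-ratios scaling moved MLLT1 to MLLT3 most, a difference of -0.21 as deposited and -0.14 scaled). Such ratios were compared for 16 pairs between the 15 dNER and the 3 shCTRL libraries by a two-sided exact permutation test (816 arrangements, smallest possible p 0.00123), with Benjamini-Hochberg adjustment over the 16. The libraries of a line share that line, so this p describes libraries and not lines. ELL2 to ELL3 had a mean log2 ratio of 0.57 in dNER libraries and 2.88 in shCTRL, a difference of -2.32, and in TPM the ratio was 1.36 in shXPA, 1.10 in shXPC, 2.04 in shERCC4, 1.03 in shERCC5 and 2.18 in shERCC6, against 7.76 in shCTRL. The balance of ELL paralogs thus moved toward ELL3 in every line. HEXIM1 to HEXIM2 averaged 0.81 in dNER libraries and 1.44 in shCTRL (difference -0.63), with dNER libraries between 0.41 and 1.26 and shCTRL libraries between 1.43 and 1.46.

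SUPT4H1 to SUPT5H averaged 0.45 in dNER libraries and -0.46 in shCTRL (difference 0.91), so the small DSIF subunit was the more abundant in TPM in every dNER line and the less abundant in shCTRL. MYC to CDK9 averaged 2.39 in dNER libraries and 1.72 in shCTRL (difference 0.68). These 4 ratios did not overlap between any dNER line and shCTRL, and each reached the smallest p the exact permutation test can give (adjusted p = 0.0049). Such separation is common for single genes: 24.5% of all genes had all 15 dNER libraries below shCTRL and 2.81% above. How often ratios of other gene pairs separate was not tested, so it cannot be called particular to these pairs. ELL3 and SUPT5H were also called by themselves in every dNER line. The adjusted p was at most 0.0294 in the exact test when any single library was left out. LARP7 to MEPCE averaged 0.51 in dNER libraries and -0.15 in shCTRL (difference 0.66; exact permutation test, adjusted p = 0.0314), but without shCTRL replicate 1, 2 or 3 the adjusted p was 0.118, 0.0588 or 0.157.

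The remaining 11 pairs did not pass. HEXIM1 to CDK9, the ratio of inhibitor to kinase, averaged -1.11 in dNER libraries and -1.14 in shCTRL (difference 0.03; exact permutation test, adjusted p = 0.831), and CCNT1 to CDK9 -1.51 and -1.37 (difference -0.15; adjusted p = 0.611, exact). MCL1 to CDK9 averaged 2.00 and 1.88 (difference 0.12; exact adjusted p = 0.611). The closest to the threshold were AFF1 to AFF4 (difference 0.34) and SUPT16H to SSRP1 (difference -0.27), each with an exact adjusted p of 0.0644.

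**Figure D5:**
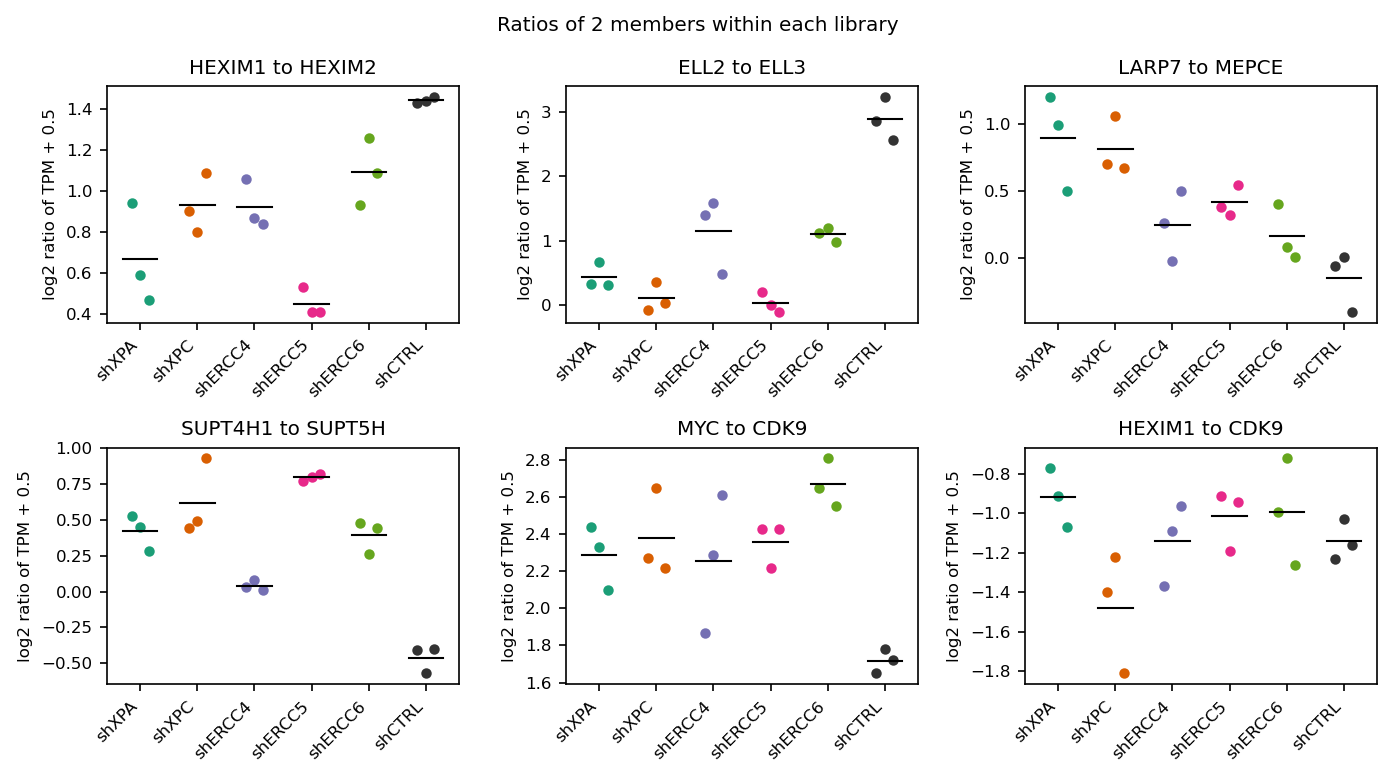
Log2 ratio of 2 members, each as TPM + 0.5, in each library for 6 of the 16 pairs. Points are libraries and horizontal lines the line means, with the 5 dNER lines left of shCTRL. HEXIM1 to HEXIM2 and ELL2 to ELL3 are lower, and SUPT4H1 to SUPT5H and MYC to CDK9 higher, in all 15 dNER libraries than in shCTRL, while HEXIM1 to CDK9 overlaps throughout.

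The dNER lines were then compared with each other, in contrasts that leave out shCTRL. The shCTRL libraries still entered the estimate of the spread and the choice of genes tested. By the moderated F test in limma (q under 0.05 and a highest-to-lowest fold above 1.5), 14 members, or 41.2%, differed among the 5 lines, against 55.7% of all genes. On scaled values 11 differed (all genes, 52.9%), and 10 did so on both scales. CCNK was lower in shXPC than in the mean of the other 4 dNER lines by 0.92 ± 0.0826 on the log2 scale (SE; limma, q = 2.66e-07), and SSRP1 was higher in shERCC6 than in the others by 0.88 ± 0.0820 (SE; limma, q = 3.73e-07). ELL3 was higher in shXPC (0.89) and lower in shERCC4 (-0.68) and shERCC6 (-0.70), EAF2 was higher in shXPC (0.82) and lower in shERCC6 (-0.62), and ELL2 was lower in shERCC5 (-0.63). All of these were called on both scales. Comparisons of 1 line with the other 4 were not repeated without single libraries. For ELL3, shERCC4 replicate 1 measured 12.9 TPM and replicate 3 measured 40.2 TPM. Whether the ELL3 call in shERCC4 holds without replicate 1, the library with the large CTD-2328D6.1 share, was not tested. MLLT1, lower in shXPC (-0.64), and NELFB, higher in shERCC6 (0.60), were called as deposited only.

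Other genes of the pathway were taken as whole lists. For the mean of the 5 lines (all genes, 28.6% lower and 7.84% higher), 10 of 26 other pause and elongation factors fell, with a median of -0.43. On the scaled values 1 of the 26 fell (3.85%, against 12.2% of all genes). JMJD6, an oxygenase linked to pause release, fell most (18.4 TPM in the dNER lines and 39.5 TPM in shCTRL; -1.10, and -0.75 scaled), followed by HTATSF1 (-0.91) and SPTY2D1 (-0.90). Of the 12 RNA polymerase II subunits 3 fell, with a median of -0.35 against -0.33 for all genes: POLR2D (-0.98), POLR2A, the catalytic subunit that carries the phosphorylated tail (50.1 and 89.8 TPM; -0.85), and POLR2C (-0.64). Of 22 Integrator and termination genes 6 fell, with a median of -0.33, and both lists were thus near the background. The lowest log2 changes among the Integrator and termination genes were those of SCAF4 (-0.90), RPRD1B (-0.86) and INTS7 (-0.71). On the scaled values the call was kept by JMJD6 and POLR2D among these 9 named genes.

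Among 19 CDK-activating, Mediator and polymerase tail kinase genes 9 fell (47.4%, against 28.6% of all genes), with a median of -0.53. On the scaled values 3 of the 19 fell (15.8%, against 12.2% of all genes). CDK2, a cell cycle kinase, averaged 17.5 TPM over the dNER lines and 51.0 TPM in shCTRL (-1.60, and -1.24 scaled), and MED1 (-1.02) and CDK11B (-1.02) followed. All 3 were called on both scales, and CDK11B has a near-identical copy, CDK11A (-0.60), so that reads may be split between them. Of 23 short-lived and immediate early transcripts 3 rose and 7 fell (13% and 30.4%, against 7.84% and 28.6% of all genes), with a median of -0.28. FOS averaged 45.4 TPM over the dNER lines and 13.0 TPM in shCTRL (1.76), EGR1 58.7 and 26.8 TPM (0.96) and BIRC3 74.9 and 46.3 TPM (0.62), while CCND1 averaged 57.0 and 226 TPM (-2.06), FOSL1 20.6 and 66.4 TPM (-1.78) and DUSP1 117 and 349 TPM (-1.63). These 6 were called in the same direction on both scales, and members of this list thus moved both ways.

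MCL1 can be set beside its relatives. Of 14 BCL2 family genes 2 rose and 3 fell (14.3% and 21.4%, against 7.84% and 28.6% of all genes), with a median of -0.34. BIK, a pro-apoptotic member, averaged 17.0 TPM over the dNER lines and 5.44 TPM in shCTRL (1.52), and HRK, also pro-apoptotic, 5.02 and 2.73 TPM (0.87). The anti-apoptotic BCL2L1 averaged 41.4 and 95.8 TPM (-1.26) and BCL2 0.673 and 3.88 TPM (-2.02), and the pro-apoptotic BAX averaged 82.7 and 134 TPM (-0.72). All but BAX were called on both scales. The 16 MYC partners and targets had a median of -0.24, with 6.25% called higher and 18.8% lower (all genes, 7.84% and 28.6%). Of these 1 rose, the MYC antagonist MXI1 (25.1 and 13.7 TPM; 0.80), and 3 fell: ODC1, the first enzyme of polyamine synthesis (56.5 and 122 TPM; -1.32), CAD, of pyrimidine synthesis (32.0 and 60.6 TPM), and NOP56, a nucleolar protein (-0.72). NOP56 lost its call after scaling. MDM4, which restrains p53, averaged 52.9 TPM over the dNER lines and 52.8 TPM in shCTRL (-0.03, and 0.33 scaled) and was not called.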

How the data were processed

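RNA from 18 libraries (6 MCF-10A lines, 3 biological replicates each) was depleted of rRNA and sequenced by the authors. The deposited values are TPM per gene symbol, quantified by the authors with kallisto (0.43.1 in the submitters' processing notes, a later version in the methods) with hg38 as the build; no scaling between libraries is stated. TPM hold no depth, so precision is the SD over replicates. The members and lists were chosen with earlier results of these data known.

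The 16382 genes that reached 1 TPM in 3 or more libraries were tested on log2(TPM + 0.5) in one limma fit (limma 3.58.1, R 4.3.3, empirical Bayes with trend, 12 residual degrees of freedom). Fold changes on this scale understate changes of low genes. Calls needed a Storey q (lambda 0.5) under 0.05 and a fitted fold above 1.5; as most genes changed, q can lie below p. Member ratios were tested by exact permutation. Figures used Python 3.11.15 and matplotlib 3.10.9. The code was tested on simulated data.

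All 34 members could be named. Per-library values are given for CDK9, CCNT1, CCNT2, HEXIM1, MCL1, MYC, members called alike in all 5 lines, and the 3 largest and 3 smallest fold changes among members called in the mean of 5. Of other lists, up to 3 called genes per direction are named, and MDM4 because the study names it beside CDK9. Positions come from GENCODE 29 (GRCh38) and start regions from RefSeq (GRCh38.p14). Other settings tried were median-of-ratios scaling, quantile normalization, a pseudocount of 0.1 or 1, a 5 TPM filter or none, Benjamini-Hochberg, a replicate block and leaving out each library.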

Additional observations from a re-analysis of the deposited data

Results flagged for a closer look

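A test of the 5 dNER lines against each other (moderated F test in limma, q under 0.05 and a highest-to-lowest fold above 1.5) singled out 14 members, a smaller share than of all genes. The log2 range of the line means was 1.13 for CCNK (highest in shERCC6, lowest in shXPC), 0.84 for HEXIM2 (shERCC5, shXPC), 0.80 for MEPCE (shERCC6, shXPC), 0.76 for SUPT16H (shERCC6, shXPC), 1.15 for SSRP1 (shERCC6, shXPA), 0.73 for NELFA (shERCC6, shXPC) and 0.76 for NELFB (shERCC6, shXPA). It was 0.76 for ELL2 (shXPC, shERCC5), 1.27 for ELL3 (shXPC, shERCC6), 0.84 for MLLT1 (shERCC6, shXPC), 1.15 for EAF2 (shXPC, shERCC6), 0.74 for PAF1 (shERCC6, shXPC), 0.62 for TCEA1 (shERCC6, shXPC) and 0.62 for MCL1 (shERCC6, shXPC). NELFA, PAF1, TCEA1 and MCL1 fell under the fold threshold after median-of-ratios scaling, with ranges of 0.50, 0.51, 0.41 and 0.43. CCNT2 passed on the scaled values only (0.65).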

How the results depend on the processing

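Of 204 log2 fold changes (34 members, 5 lines and their mean), 79 were called, and none reversed while called under any alternative. Median-of-ratios scaling kept 23 of the calls and added 6, and quantile normalization kept 26 and added 6, while 54 and 56 uncalled values changed sign. The other settings on all libraries kept 76 to 79 calls. Under median-of-ratios scaling, members lower numbered 3 in each of shXPA, shXPC, shERCC4 and shERCC5, 2 in shERCC6, 0 in the mean of 5 and 0 in all 5 lines, and members higher 3 in shXPC, 2 in shERCC4 and 3 in the mean. Under quantile normalization, members lower numbered 2 in shXPA, 6 in shXPC, 3 in shERCC4, 3 in shERCC5, 2 in shERCC6, 1 in the mean and 0 in all 5 lines, and members higher 4 in shXPC and 3 in the mean. For the other lists (scaling, then quantile normalization), elongation factors had 1 then 2 higher and 1 then 2 lower, polymerase subunits 1 lower in both, Integrator and termination genes 0 lower in both (6 in both at an unadjusted limma p under 0.05), CDK-activating and Mediator genes 3 lower in both and 1 higher when scaled, short-lived transcripts 6 higher in both and 3 then 4 lower, and MYC partners and targets 2 higher in both. BCL2 family genes higher numbered 4 after quantile normalization, and lower 5 with a pseudocount of 0.1. Of all genes, 13.6% were called higher and 12.2% lower in the scaled mean, and 12.8% lower in the quantile-normalized mean. Other shares of all genes after quantile normalization were not computed. Those quantile counts therefore cannot be set against a background.

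Leaving out 1 library at a time, members higher in shXPA numbered 1 (without shXPA replicate 3) to 2, members lower in all 5 lines 2 (without shCTRL replicate 1 or shXPA replicate 3) to 3, and members lower in shERCC4 7 (without its replicate 1) to 12. The LARP7 to MEPCE difference ran from 0.53 to 0.74, AFF1 to AFF4 from 0.22 to 0.45 and SUPT16H to SSRP1 from -0.29 to -0.24. Replicate numbers did not pair the libraries (median correlation of deviations 0.00704 for the same number and -0.00144 for other numbers), and a replicate block kept all 79 calls, with members lower in the mean still 10. Precision is limited by 3 replicates, 1 shRNA per gene and 1 control line, and TPM give no depth.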
